A study of Mus musculus with 4 samples.

Results

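The comparison sets 2 of the 4 single-colour arrays of the series against each other, the array of stressed D2LR-KO mice and the array of stressed D2R-KO mice, chosen by their titles. D2R-KO mice lack the dopamine D2 receptor, and D2LR-KO mice lack its long form. Each array carried RNA from the dorsal raphe nucleus (DRN) of 5 pooled male mice, 10 weeks old, on a C57BL/6J background. Both groups had been through a forced swim of 6 min daily for 4 days, 12 h before the DRN was collected. The other 2 arrays carry wild-type (WT) mice, 1 pool stressed in the same way and 1 not stressed, and there is no array of a non-stressed knockout. How the alleles were made, and whether animals were littermates, the labels do not say.

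The D2 receptor is a Gi-coupled receptor made in a long and a short form by alternative splicing of Drd2. The forms differ by an insert in the third intracellular loop, the part that contacts G proteins. The short form is best known as an autoreceptor on dopamine neurons and the long form as a receptor on target cells. The DRN holds serotonergic neurons that project to the forebrain, together with GABA, glutamate and dopamine neurons. The question that the comparison addresses is what differs when the short form is kept. Since each group is 1 pool on 1 array, the values carry no error between replicates and no test is given. Every statement below compares 2 pools and not 2 genotypes.

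The knockout arrays were close to each other. Across 15606 genes detected on at least 1 of the 2 arrays, the signals correlated at r = 0.994, and 15451 genes (99.0%) lay within 1.5-fold. The same correlation was 0.990 between D2R-KO and non-stressed WT, 0.991 between D2LR-KO and non-stressed WT, and 0.956 and 0.960 between stressed WT and D2R-KO or D2LR-KO. The middle 95% of log2 differences, written throughout as D2LR-KO minus D2R-KO, ran from -0.35 to 0.35 with a median of 0.00. Repeated positive control spots (24 of each of 2 kinds) had SDs of the log2 difference of 0.18 and 0.22 and say nothing about spread between mice. At 2-fold, 23 genes (0.147%) were higher and 8 (0.0513%) lower in D2LR-KO, and at 1.5-fold 103 (0.66%) were higher and 52 (0.333%) lower. Over all 21950 detected probes, 35 (0.159%) were higher and 10 (0.0456%) lower at 2-fold. With each array scaled to 1 median in place of quantile normalization the split at 2-fold was 11 higher and 13 lower. For dim genes the added 50 in log2(signal + 50) makes these differences too small. The authors' deposited intensities, scaled to an array median of 25, are therefore given beside them.

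**Figure D1:**
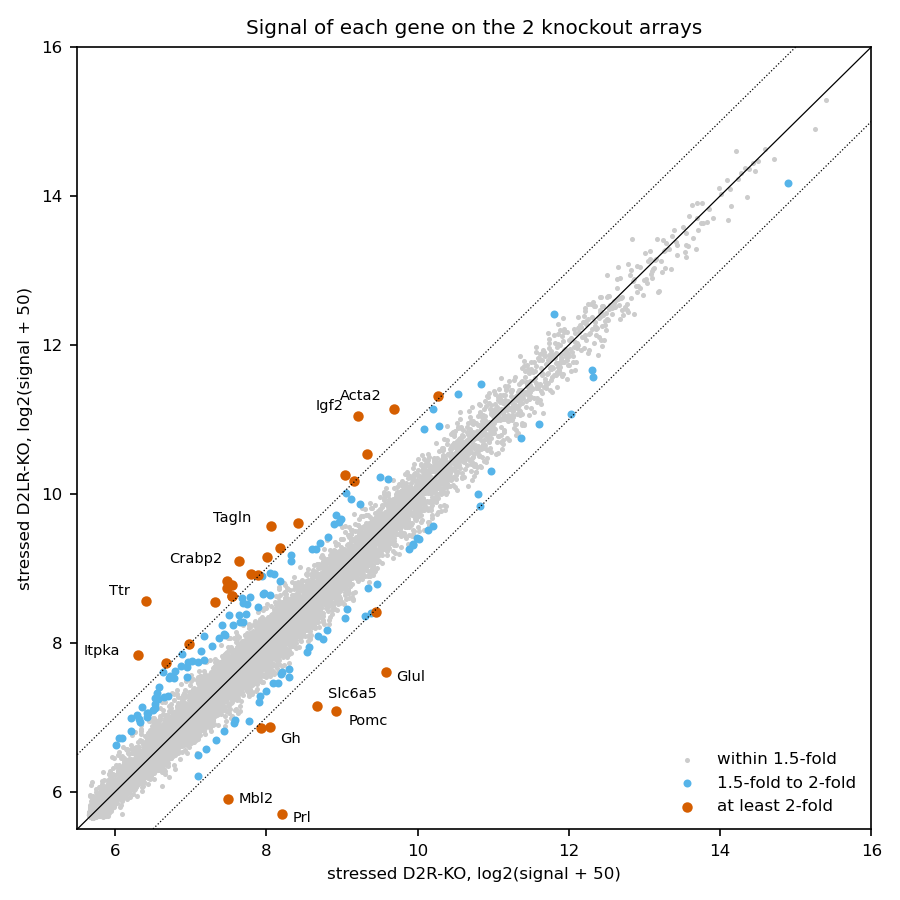
Log2(signal + 50) of each gene on the D2R-KO array (x axis) and the D2LR-KO array (y axis), 15606 points. The solid line marks equality and the dotted lines 2-fold, with blue points between 1.5-fold and 2-fold and orange points at least 2-fold apart; Ttr, Igf2, Tagln and Acta2 lie above the upper line and Prl, Glul and Pomc below the lower one.

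Genes higher in D2LR-KO were led by Ttr, Igf2, Itpka, Tagln, Acta2 and Crabp2, and those lower by Prl, Glul, Pomc, Mbl2, Slc6a5 and Gh. The higher side held genes of meninges, fibroblasts and smooth muscle, and the lower side held pituitary hormone genes and a glycine transporter. The position of each knockout array relative to the WT arrays was counted for the called genes only. These genes were chosen by the difference between the knockout arrays. That choice alone favours a high D2LR-KO or a low D2R-KO on the higher side, and the reverse on the lower side. No share over all genes was taken, so the counts only describe the chosen genes. An array was counted as apart when it was at least 1.5-fold above or below both WT arrays. Of the 23 higher genes, D2LR-KO alone was apart for 13, D2R-KO alone for 1, both for 3 and neither for 6. D2LR-KO was the array above both WT arrays for 20 of the 23. Of the 8 lower genes, D2R-KO alone was apart for 5, D2LR-KO alone for 1, both for 1 and neither for 1. At 1.5-fold, neither array was apart for 54 of the 103 higher and 34 of the 52 lower genes. By any margin, D2LR-KO lay above both WT arrays for 83 of the 103 higher genes and D2R-KO below both for 41. Of the 52 lower genes, D2R-KO lay above both WT arrays for 38 and D2LR-KO below both for 32.

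**Figure D2:**
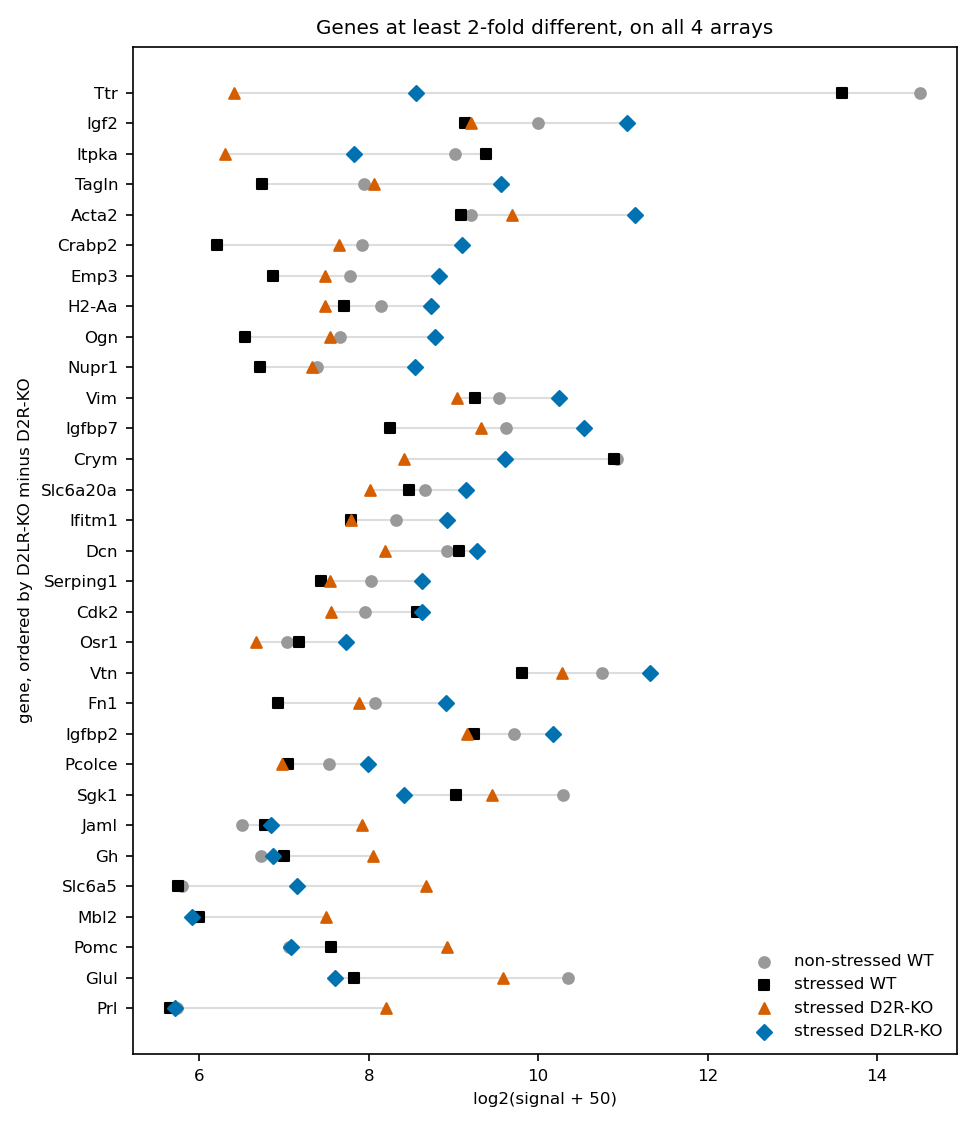
Log2(signal + 50) of the 31 genes at least 2-fold different, on all 4 arrays (markers by array, 1 value each; grey lines span the range). D2LR-KO is highest for most genes in the upper block, while Prl, Pomc, Mbl2, Gh and Jaml stand out on the D2R-KO array.

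Drd2 encodes both receptor forms and is the gene altered in both knockouts. It had deposited intensities of 20.9 in D2R-KO and 48.3 in D2LR-KO, with 26.8 in non-stressed and 43.8 in stressed WT. It was thus lowest in D2R-KO and highest in D2LR-KO, with a log2 difference of 0.64. With local background, that is each spot's own surroundings in place of the blank spots, the difference was -0.089, so its direction depends on that choice. The D2R-KO level was close to that of non-stressed WT. Where the probe lies relative to the sequence altered in each knockout was not determined. The probe therefore checks the labels little, and it does not separate the long from the short form.

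Other genes of dopamine neurons and dopamine receptors differed little between the knockout arrays. Of 13 members compared 2 were at least 1.5-fold higher, Drd2 and Slc6a3, and none was lower (median 0.07). Slc6a3, the dopamine transporter, had intensities of 278.4 in D2R-KO, 436.6 in D2LR-KO, 454.3 in non-stressed WT and 395.4 in stressed WT. D2R-KO was the low array, and the other 3 lay close together (difference 0.70). Th, tyrosine hydroxylase of catecholamine synthesis, was at 772.8 in D2R-KO and 813.9 in D2LR-KO (0.22), and Ddc, the decarboxylase of dopamine and serotonin synthesis, at 1735.3 and 2253.8 (0.50). The vesicular monoamine transporter Slc18a2 was at 1197.8 and 1132.7 (0.04). Of the receptor genes, Drd1, Drd3 and Drd4 were dim on both arrays (5.5 or less), and Drd5 was at 24.4 and 16.9 (-0.21).

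Downstream partners of the receptor were compared next, since D2LR-KO mice keep the short form and D2R-KO mice have neither form. Of 40 compared genes for Gi and Go subunits, regulators of G protein signalling, receptor kinases, arrestins, GIRK channels, adenylyl cyclases, Akt and GSK3 and scaffold proteins, none was 1.5-fold higher or lower (median -0.04, range -0.47 to 0.56). Gnai1, an inhibitory G protein subunit, was at 180.1 in D2R-KO and 128.8 in D2LR-KO (-0.32), and Gnai2 at 618.6 and 694.7 (0.28); both turned sign with local background (0.33 and -0.55). In that setting 5 of the 40 were higher and 2 lower. Of 9 compared regulators of splicing that have been linked to Drd2 or to neuronal exons, 1 was lower. Nova1, a neuronal RNA-binding protein, had intensities of 434.6 in D2R-KO and 235.2 in D2LR-KO, with 232.9 in non-stressed and 313.7 in stressed WT (-0.67). After normalization D2R-KO and stressed WT were level (log2 signals of 9.47 each) and D2LR-KO lay with non-stressed WT (8.79 and 8.80). With local background the difference of Nova1 was -0.32, and none of the 9 regulators passed 1.5-fold. Ptbp2, the neuronal polypyrimidine tract protein, was just inside 1.5-fold at 860.6 and 505.8 (-0.58), and Ptbp1 was at 64.0 and 69.9 (0.14).

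Serotonergic neuron genes, which mark the labelled tissue, were detected on both arrays. Of 18 compared 1 was 1.5-fold lower in D2LR-KO and none was higher, with a median of -0.08. Tph2, which makes serotonin in neurons, was at 264.6 in D2R-KO and 151.5 in D2LR-KO, against 31.4 in non-stressed and 10.7 in stressed WT. The log2 difference was -0.58, just inside 1.5-fold (-0.18 with local background), and both knockout arrays lay far above both WT arrays. Slc6a4, the serotonin transporter, was at 89.6 in D2R-KO and 43.5 in D2LR-KO (-0.63), with 11.6 and 6.8 in the WT arrays, and its difference was -0.12 with local background. Gata3, a transcription factor of this lineage, was at 77.9 and 39.2 (-0.58), while Lmx1b and En1 were dim on both arrays (-0.06 and -0.10). Of the 18 genes 14 were lower in D2LR-KO, most of them slightly. Because the RNA came from tissue pools, fewer cells of a type and less RNA per cell cannot be told apart, here and below.

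Serotonin receptors showed no 1.5-fold difference in either direction among 13 compared (median -0.02). Most were dim, with deposited intensities under the array median of 25 for 11 of the 13 in D2R-KO and 12 in D2LR-KO. Since the added offset makes differences of dim genes too small, the count says little about these receptors. Htr1a, the autoreceptor on serotonergic neurons that the series is concerned with, was at 33.7 in D2R-KO and 21.7 in D2LR-KO, with 28.7 and 22.6 in non-stressed and stressed WT (-0.29). For Htr1a D2R-KO was the highest of the 4 arrays, and D2LR-KO and stressed WT were level at the low end (log2 signals of 6.46 and 6.47). The difference between the knockouts was -0.10 with local background, and all 4 intensities lay near the array median of 25. Htr1b, another inhibitory serotonin receptor, was at 1.6 and 1.7, close to no signal.

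Glycine and GABA neuron genes were lower in D2LR-KO in part. Slc6a5, the transporter that loads glycinergic neurons with glycine, had intensities of 231.9 in D2R-KO, 53.2 in D2LR-KO, 3.0 in non-stressed WT and 2.4 in stressed WT. All 4 arrays were in different ranges except the WT pair, and D2LR-KO was 2.87-fold below D2R-KO (-1.52). Of 10 compared genes of glycinergic neurons and glycine receptors 3 were at least 1.5-fold lower and none was higher, with a median of -0.15. The others were Slc32a1, the vesicular transporter of both glycine and GABA (624.4 and 354.6, -0.63), and Glra1, the adult receptor subunit (52.8 and 23.1, -0.60). Slc6a9, the glial glycine transporter, was at 1069.0 and 878.4 (-0.13).

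Of 15 compared GABA genes 3 were lower and none was higher (median -0.13). Besides Slc32a1 these were the GABA transporter Slc6a11 (207.7 and 108.3, -0.66) and the receptor subunit Gabra3 (-0.63). Gad2, which makes GABA at synapses, was at 591.1 and 358.2 (-0.54). The WT arrays had 504.4 and 300.8 for Gad2, so the ranges of the knockout and WT arrays overlapped. Subunits such as Gabrb1 (224.7 and 226.0) and Gabra4 (92.8 and 90.2) were level. Of 15 glutamate genes none passed 1.5-fold (median -0.04). Slc17a6, which fills synaptic vesicles with glutamate in subcortical neurons, was at 654.1 and 621.4 (0.04, but -0.79 with local background), and Gria1, an AMPA receptor subunit, at 818.3 and 528.5 (-0.45).

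The pituitary hormone genes Prl, Pomc and Gh, 3 of 17 compared members of the pituitary list, were brighter on the D2R-KO array than on any other. Prl, which encodes prolactin, had intensities of 156.3 in D2R-KO, 1.3 in D2LR-KO and 1.9 in non-stressed WT, and the stressed WT array has no deposited value for it. Its signal was 5.66-fold lower in D2LR-KO (-2.50). Pomc, the precursor of ACTH and endorphin, was at 283.5 in D2R-KO, 49.6 in D2LR-KO, 48.9 in non-stressed WT and 71.5 in stressed WT (-1.83). Gh, growth hormone, was at 135.3, 39.1, 32.9 and 42.6 in the same order (-1.17). For all of these genes D2LR-KO lay at or near the WT level and D2R-KO stood apart. The remaining 14 compared members of the pituitary list were within 1.5-fold, so that the list median was -0.03. Cga, the shared subunit of the glycoprotein hormones, was at 4.5 in D2R-KO and 1.2 in D2LR-KO, Lhb at 2.8 and 2.9, Fshb at 3.4 and 2.5, while Tshb and the corticotroph factor Tbx19 had no deposited value in D2R-KO and 0.6 and 0.9 in D2LR-KO. Secretory granule genes that neurons share, namely Chga (821.0 and 663.5), Scg2 (1466.8 and 1053.0) and Pcsk2 (362.0 and 353.4), differed little. The summed intensity of the 17 members was 5333.7 in D2R-KO, 3872.4 in D2LR-KO, 4260.3 in non-stressed and 3734.6 in stressed WT. Its largest members were the granule genes Chgb (1915.3 in D2R-KO and 1497.9 in D2LR-KO), Scg2 and Chga. The sum is therefore not a measure of the hormone genes. The part of pituitary tissue in the D2R-KO pool was not tested.

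The promoter window of Prl (RefSeq, GRCm38.p6, chr13:27057320-27057619, plus strand) is shown because Prl had the largest difference on the lower side. Capitals mark matches to ATGNATA on either strand, the core bound by the pituitary factor Pit-1, which start at -148 and -47 from the start site on which the window is built (position 27057570).
Prl: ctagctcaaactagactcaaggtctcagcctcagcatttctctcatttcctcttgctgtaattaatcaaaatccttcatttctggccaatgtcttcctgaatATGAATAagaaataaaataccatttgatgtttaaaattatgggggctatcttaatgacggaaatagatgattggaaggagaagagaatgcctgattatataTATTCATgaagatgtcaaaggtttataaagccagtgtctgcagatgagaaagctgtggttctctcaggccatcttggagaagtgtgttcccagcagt
Of 32851 promoter windows of this length, 8.84% hold such a match, and among 15 pituitary list members with a window, Prl and Pou1f1 do. The gene for Pit-1 itself, Pou1f1, has no probe named here.

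Meningeal and fibroblast genes made up the largest group on the higher side. All 18 compared members were higher in D2LR-KO than in D2R-KO, 14 of them at least 1.5-fold and 6 at least 2-fold, with a median of 0.85 against 0.00 for all genes. D2LR-KO was the highest of the 4 arrays for all 18. That all 18 lay above D2R-KO favours this rank, and no share over all genes was taken, so it only describes these members. Igf2, an insulin-like growth factor made by the meninges and choroid plexus, had intensities of 355.3 in D2R-KO, 1263.6 in D2LR-KO, 567.6 in non-stressed WT and 244.3 in stressed WT. It was 3.58-fold higher in D2LR-KO than in D2R-KO (1.84), and 0.67 with local background. Crabp2, which carries retinoic acid in cells, was at 94.3, 300.8, 113.9 and 14.7 (1.45). Ogn, the matrix proteoglycan osteoglycin, was at 85.5, 232.2, 90.0 and 24.8 (1.24), and Nupr1, a stress-induced chromatin protein, at 67.8, 190.9, 68.9 and 31.4 (1.22). For Crabp2, Ogn and Nupr1 D2R-KO and non-stressed WT lay together, stressed WT below them and D2LR-KO above.

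Further members showed that the difference ran through matrix, transport and retinoid genes of this list. Among matrix genes, decorin (Dcn) was at 153.1 in D2R-KO and 344.1 in D2LR-KO (1.09), Col3a1 at 40.4 and 106.4 (0.98), Col1a2 at 96.5 and 201.4 (0.93), the mineralization inhibitor Mgp at 759.8 and 1364.6 (0.94), Islr at 47.9 and 97.1 (0.74) and fibromodulin (Fmod) at 16.9 and 44.1 (0.66). Among transporters of the leptomeninges, Slc6a20a was at 130.4 and 313.4 (1.13), Slc22a6 at 25.5 and 64.3 (0.77) and Slc6a13 at 44.4 and 89.8 (0.72). Aldh1a2, which makes retinoic acid, was at 65.1 and 117.7 (0.68). The members within 1.5-fold were Lum (0.54), Bgn (0.50), Slc13a3 (0.44) and Col1a1 (0.13), the last with 5.0 and 8.0. Slc13a3 was at -0.06 with local background, the only member to turn sign there. The summed intensity of the 18 members was 2203.0 in D2R-KO, 5064.7 in D2LR-KO, 2617.8 in non-stressed and 1265.6 in stressed WT. Its largest members on the knockout arrays were Mgp and Igf2 (355.3 in D2R-KO and 1263.6 in D2LR-KO), so the sum weighs these genes most. Over 11 other settings the list median ran from 0.65 to 1.11. How much meninges each pool held is not known here, and its part in the difference was not tested.

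**Figure D3:**
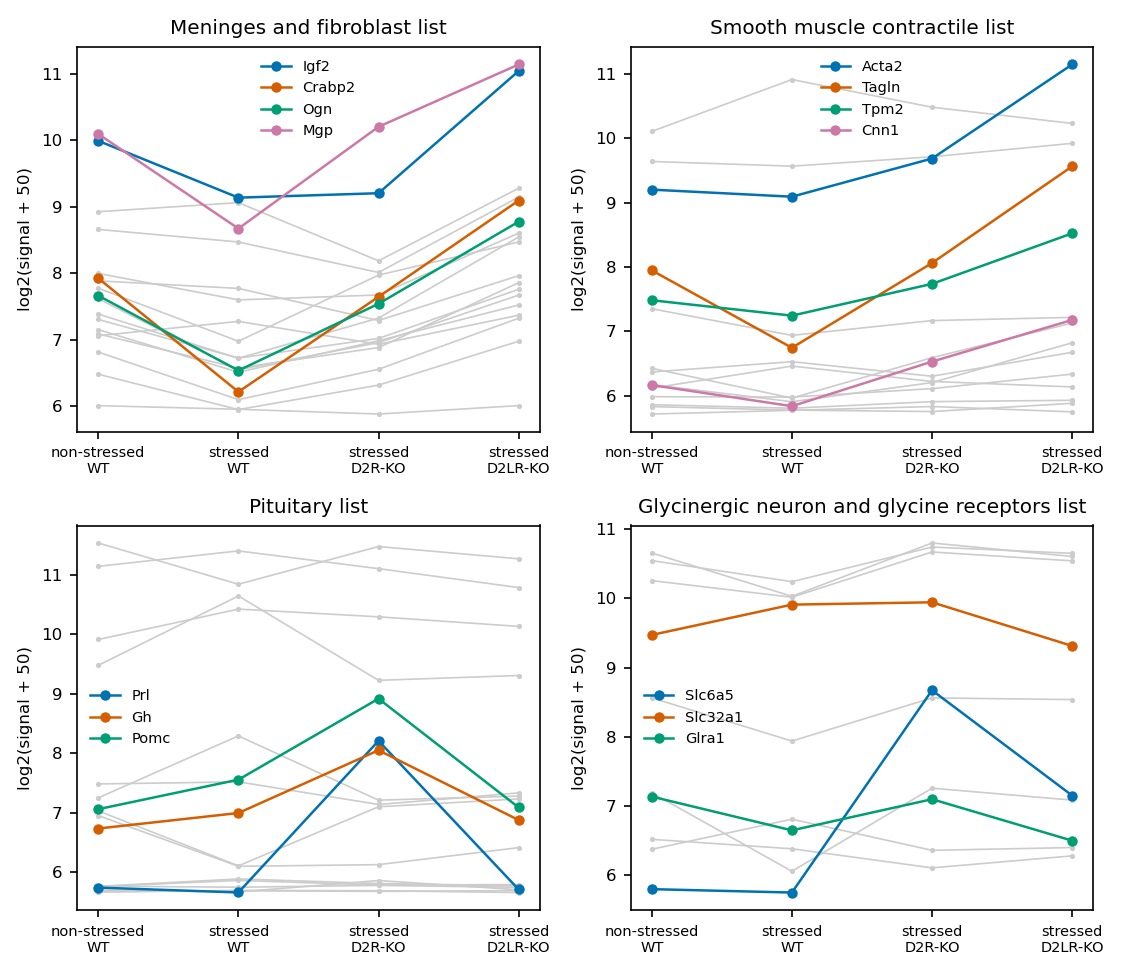
Log2(signal + 50) of the compared members of 4 gene lists on the 4 arrays, 1 value per array. Lines join the values of 1 gene and do not stand for a time course; named genes are coloured and other members grey. Meningeal genes peak on the D2LR-KO array, and Prl, Gh, Pomc and Slc6a5 on the D2R-KO array.

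Smooth muscle genes were higher in D2LR-KO as well, in a smaller share of the list. Of 15 compared members 5 were at least 1.5-fold higher and none was lower (median 0.23). Tagln, the actin-binding protein transgelin, had intensities of 137.2 in D2R-KO, 426.4 in D2LR-KO, 116.7 in non-stressed WT and 32.6 in stressed WT, a 2.83-fold difference between the knockouts. Acta2, smooth muscle actin, was at 512.7, 1364.9, 319.9 and 235.5 (1.46). Both genes were brightest in D2LR-KO, with D2R-KO above both WT arrays. Tpm2, a tropomyosin, was at 102.5 and 187.7 (0.78), calponin (Cnn1) differed by 0.65 and smooth muscle myosin (Myh11) was at 13.4 and 36.5 (0.62). Mustn1 was just inside 1.5-fold (0.54). Des (5.6 and 6.1), Lmod1 (2.3 and 5.0) and the cofactor Myocd (4.0 and 2.2) were dim on both arrays, and their shared regulator Srf was at 57.2 and 57.8 (0.05).

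The promoter window of Acta2 (RefSeq, GRCm38.p6, chr19:34255324-34255623, minus strand) is shown because contractile genes such as Acta2 are textbook targets of serum response factor, the product of Srf. Capitals mark CArG-like matches, a CArG box in which at most 1 of the middle 6 bases may be other than A or T. They start at -84 and -34 from the start site on which the window is built (position 34255373), which lies inside the annotated bounds of the gene.
Acta2: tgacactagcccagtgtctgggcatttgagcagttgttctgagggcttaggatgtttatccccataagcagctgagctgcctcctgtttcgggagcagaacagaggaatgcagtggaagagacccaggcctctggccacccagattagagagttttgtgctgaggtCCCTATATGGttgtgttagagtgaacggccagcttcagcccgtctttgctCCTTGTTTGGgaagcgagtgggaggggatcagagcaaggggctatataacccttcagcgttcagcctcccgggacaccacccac
The motif reads the same on both strands, 9.98% of the 32851 windows hold a match, and among 12 list members with a window Acta2, Myl9 and Srf do. The strict CArG box occurs in 1.63% of windows and not in this one. The matches are a description of the letters and say nothing of binding in these pools.

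Few vascular, microglial and immune genes passed 1.5-fold, though most lay above 0. Of 18 endothelial and pericyte genes 2 were higher and none was lower (median 0.13, and 0.03 with local background), with 14 above 0. Vtn, vitronectin of pericytes, was at 811.5 in D2R-KO, 1565.6 in D2LR-KO, 1001.4 in non-stressed and 396.5 in stressed WT (1.04), and the tight junction gene Cldn5 was at 484.1 and 696.0 (0.60). Cldn5 turned to -0.13 with local background. Pecam1 (38.7 and 42.6) and Ly6c1 (698.9 and 731.4) of endothelial cells were level (0.10 and 0.19). Of 13 microglial genes 1 was higher, the signalling adaptor Tyrobp (172.8 and 301.4, 0.77), and none was lower (median 0.24). Above 0 were 10 of the 13, among them P2ry12 (0.41) and Cx3cr1 (0.19), and 3 were below. C1qb was at 0.01, but at 1.12 with local background, where 4 of the 13 were higher. The microglial median was 0.02 with 1 median per array.

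Of 10 compared genes of antigen presentation and blood cells 3 were higher and none was lower (median 0.34, and 0.12 with local background). Above 0 were 9 of the 10. H2-Aa, a class II chain that presents peptides to T cells, had intensities of 80.7 in D2R-KO, 225.0 in D2LR-KO, 138.2 in non-stressed WT and 81.5 in stressed WT (1.25). D2R-KO and stressed WT were level there and D2LR-KO the highest. Cd74, the class II chaperone, was at 18.3 and 52.3 (0.78) and S100a9 of neutrophils differed by 0.67, whereas Cd3e and Cd4 of T cells were at or near no signal on both arrays. Interferon response genes were within 1.5-fold (15 of 15, median 0.14), though 14 of the 15 were above 0. Their median was 0.03 with local background.

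Ttr, transthyretin, the main product of the choroid plexus, differed most on the higher side. Its intensities were 20.3 in D2R-KO, 193.1 in D2LR-KO, 12884.0 in non-stressed WT and 5720.2 in stressed WT. Both knockout arrays thus lay far below both WT arrays, and D2LR-KO lay 4.45-fold above D2R-KO (2.15). The other 10 compared genes of choroid plexus and ependyma were within 1.5-fold. Folr1 was at 2.2 and 3.9 and Kcne2 at 7.6 and 4.0 on the knockout arrays, against 62.8 and 45.6 in non-stressed WT. Without Ttr, the summed intensity of these 10 members was 2289.1 in D2R-KO and 1928.9 in D2LR-KO, with 2737.6 and 1021.0 in non-stressed and stressed WT. Most of that sum was 1 gene, Enpp2, at 2171.6 in D2R-KO, 1812.3 in D2LR-KO, 2368.9 in non-stressed and 853.8 in stressed WT. The sum therefore says little about the other members, which were far dimmer. The share of choroid plexus in each pool was not tested.

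Genes of cerebral cortex, hippocampus and striatum showed a like pattern in a few members. Of 17 compared, 4 were higher in D2LR-KO and none was lower (median 0.09). Itpka, an inositol trisphosphate kinase of forebrain neurons, had intensities of 16.4 in D2R-KO, 104.0 in D2LR-KO, 277.8 in non-stressed WT and 292.7 in stressed WT (1.53). Crym, a thyroid hormone binding protein, was at 186.6, 440.9, 1128.1 and 857.5, a 2.29-fold difference between the knockouts. For Itpka and Crym both knockouts lay below both WT arrays and D2R-KO was the lowest. Pde1a, a calmodulin-dependent phosphodiesterase, was at 284.7 and 478.5 (0.79) and the neuronal adhesion gene Icam5 at 241.4 and 359.3 (0.62). The other 13 members were within 1.5-fold on both sides of 0, from Nptx1 (97.9 and 63.0, -0.39) and Hpca (1413.9 and 1042.5, -0.28) through Nrgn (316.1 and 310.4, 0.09) to Bcl11b (39.8 and 59.9, 0.39) and Cck (872.7 and 1151.6, 0.52). In all 11 of the 17 were above 0. Hypothalamic neuropeptide genes had 1 of 16 higher, Npy (53.0 and 96.2, 0.64), and cerebellar genes 1 of 11, Neurod1 (78.2 and 134.4, 0.65). None of 13 pons and medulla genes passed 1.5-fold (median -0.02).

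Astrocyte genes differed in 1 member only of 14 compared. Glul, glutamine synthetase, which turns glutamate into glutamine in astrocytes, had intensities of 474.3 in D2R-KO, 84.5 in D2LR-KO, 728.9 in non-stressed WT and 90.6 in stressed WT. D2R-KO and non-stressed WT were high, D2LR-KO and stressed WT were low, and the knockout arrays differed 3.94-fold (-1.98, and -1.07 with local background). Gfap (0.16) and Aqp4 (676.7 and 868.5, 0.47), the filament and water channel of astrocytes, did not go the same way, and the list median was -0.01. Oligodendrocyte and myelin genes were within 1.5-fold (13 of 13, median 0.01), with Mbp at 7903.3 and 8229.9. Of 10 genes of oligodendrocyte precursors 2 were higher, the transcription factor Olig1 (335.4 and 559.4, 0.80) and Bmp4 (40.2 and 91.2, 0.81), while Pdgfra, the receptor that defines these cells, was at 193.6 and 194.9.

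**Figure D4:**
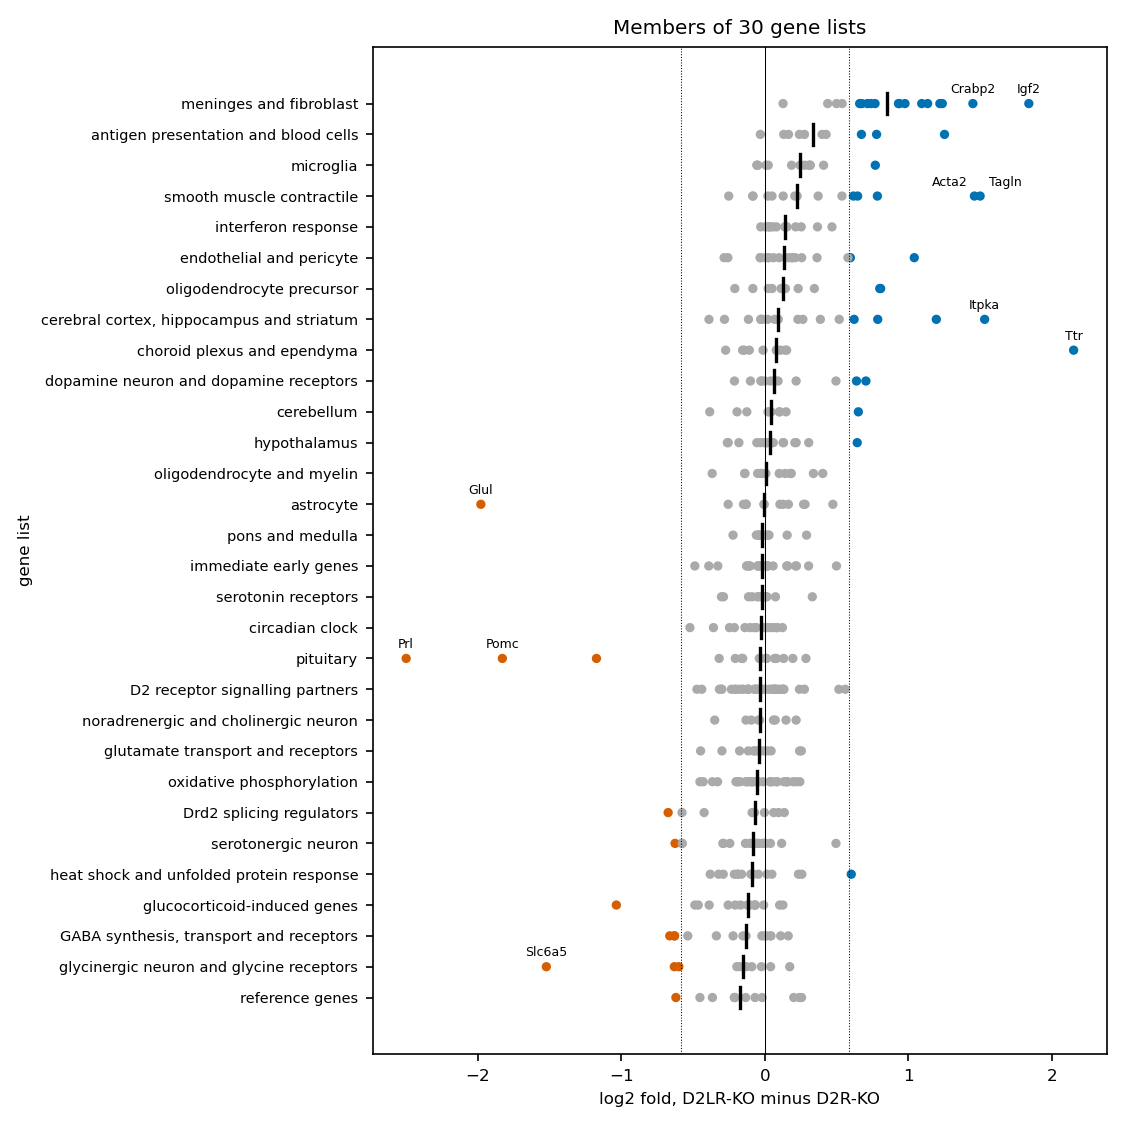
Log2 difference, D2LR-KO minus D2R-KO, of each compared member of 30 gene lists (points), with the list median as a black bar. Dotted lines mark 1.5-fold, with blue points above and orange points below it; the meninges and fibroblast list has its median at 0.85, and the other medians lie between -0.17 and 0.34.

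Of 16 glucocorticoid-induced genes 1 was lower at 1.5-fold and none was higher (median -0.12). The median was -0.05 with local background and -0.30 with 1 median per array. Below 0 were 14 of the 16 genes, most of them slightly. Among those within 1.5-fold were the phosphatase gene Dusp1 (147.9 and 88.9, -0.49), the metallothionein Mt2 (6189.2 and 4151.2, -0.46) and Tsc22d3 (1015.5 and 700.9, -0.39). Sgk1, a kinase induced by glucocorticoids, was at 429.7 in D2R-KO, 173.2 in D2LR-KO, 691.4 in non-stressed WT and 226.2 in stressed WT. As for Glul, D2LR-KO and stressed WT were the low arrays (-1.04), but the difference was -0.12 with local background. Fkbp5, another such gene, was at 34.7 and 30.9 (-0.07). None of 23 activity-induced immediate early genes passed 1.5-fold (median -0.02), with Fos at 108.4 and 124.4 (0.22). None of 16 circadian clock genes did (median -0.03), with Dbp at 551.1 and 427.7 (-0.21), nor any of 30 oxidative phosphorylation genes (median -0.06) or of 9 noradrenergic and cholinergic genes (median -0.04). Heat shock genes had 1 of 16 higher, Hspb1 (261.8 and 381.7, 0.60), with a median of -0.09. Of 12 common reference genes 11 were within 1.5-fold, with Actb at 0.20 and Gapdh at -0.02 (-0.45 and 0.15 with local background). Ywhaz was lower (155.2 and 82.8, -0.62). Of the 12 reference genes 9 were below 0, and their median of -0.17 was the lowest of the 30 lists. The medians of the serotonergic, glycinergic, GABA and glucocorticoid-induced lists were thus no lower than that of the reference genes.

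The remaining genes among the largest differences belong to no list. Mbl2, a mannose-binding lectin of liver, had intensities of 81.5 in D2R-KO, 5.7 in D2LR-KO, 6.1 in non-stressed WT and 8.7 in stressed WT (-1.58). Jaml, a junction adhesion protein of white cells, was at 121.5, 37.7, 23.6 and 33.6 (-1.07). Like the hormone genes, both were bright on the D2R-KO array alone. Further lower genes were Lrrc49 (1179.8 and 526.8, -0.98), the potassium channel subunit Kcnab1 (406.4 and 170.7, -0.98), the neuronal enolase Eno2 (2781.6 and 1286.7, -0.97), the initiation factor gene Eif2s3x (384.0 and 165.4, -0.95), the homeobox gene Shox2 (52.5 and 13.8, -0.88), slow troponin T (Tnnt1, 105.7 and 42.7, -0.82) and the kinesin adaptor Kifap3 (1153.6 and 596.4, -0.80). On the higher side stood Emp3, a membrane protein (80.5 and 243.1, 1.35), the intermediate filament gene Vim (313.6 and 712.8, 1.21), Igfbp7, a binding protein of vessel walls (391.0 and 872.4, 1.21), and Ifitm1 (108.4 and 263.0, 1.13). With local background Igfbp7 was at 0.22 and Kcnab1 at -0.27.

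Of the 31 genes at 2-fold, all kept their sign with local background, with the deposited values plus 25 and with 1 median per array. A 2-fold size in each of these held for 7 of the 23 higher genes, namely Ttr, Itpka, Tagln, Acta2, Crabp2, Ogn and Crym, and for 5 of the 8 lower genes, namely Prl, Glul, Pomc, Mbl2 and Slc6a5. Of the 1.5-fold genes 98 of 103 higher and 48 of 52 lower ones kept their sign in these settings.

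**Figure D5:**
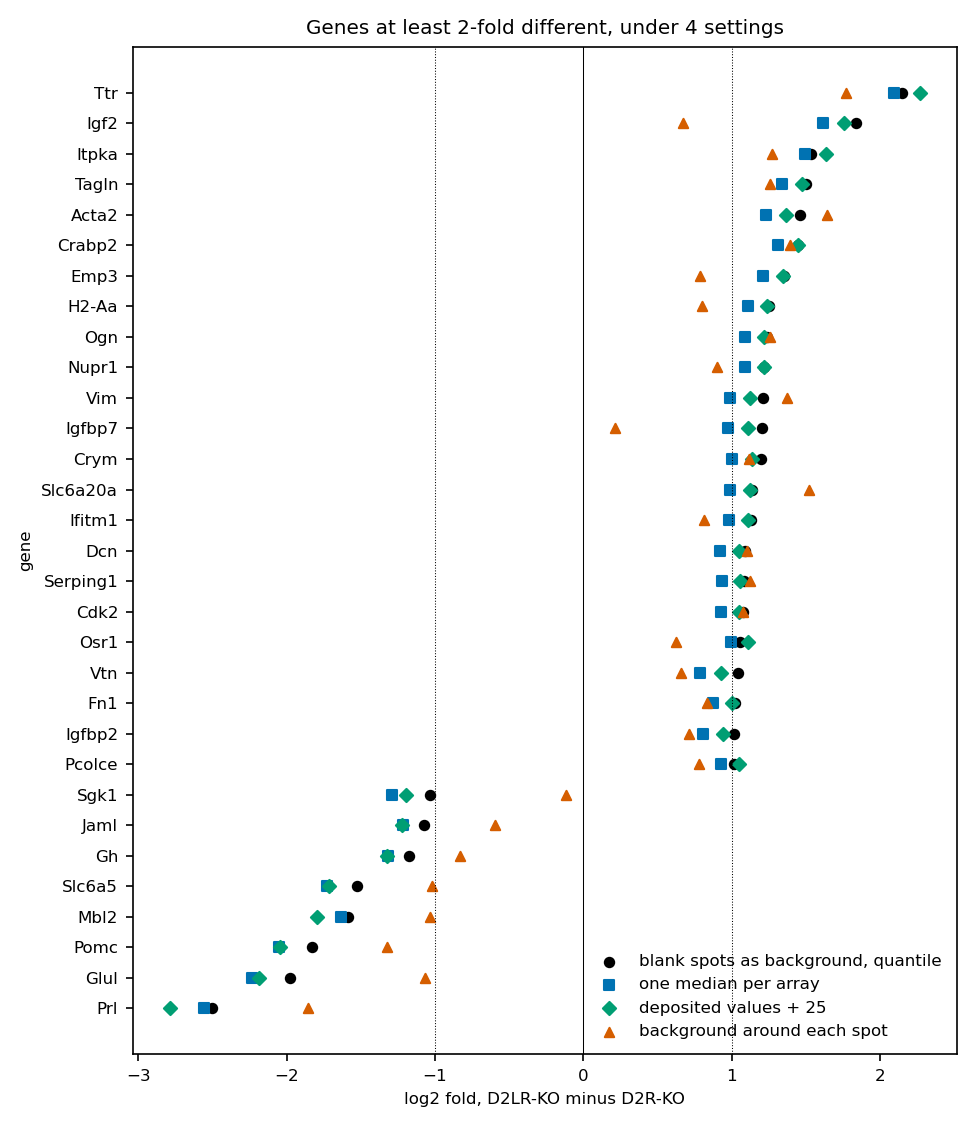
Log2 difference, D2LR-KO minus D2R-KO, of the 31 genes at least 2-fold different, under 4 settings (1 marker each). Dotted lines mark 2-fold; all markers of a gene lie on the same side of 0, and Igfbp7 and Sgk1 come closest to 0 with local background.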

How the data were processed

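RNA of 4 pools was measured on 1 single-colour array each, and 2 of these arrays, stressed D2LR-KO and stressed D2R-KO, are compared here. Per the labels' protocols, RNA was extracted with a Qiagen kit, amplified as amino allyl aRNA and labelled with Cy5. The arrays were scanned at 3 gains, per the file headers, and each spot has a median intensity with no background subtracted. The rule that joined the gains was not found. The value table deposited by the authors is in linear intensity, too. Its values fit spot medians less a constant (36.7 for D2LR-KO, 38.1 for D2R-KO) and divided by a factor (1.51 and 1.80), with an array median of 25.

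Blank spots served as negative controls for normexp correction (nec, limma 3.58.1, R 4.3.3) (offset 50), and the 4 arrays were quantile-normalized after log2. A probe was detected when its spot lay over 2 SD above the blank mean. Of 23473 probes 16631 have 1 gene symbol in the series' probe table and 6842 have none here. Symbols were matched to the RefSeq gene table of GRCm38.p6 (12501 in it, 3883 older ones updated, 62 kept). The brightest probe stood for each of 229 genes with several, and 9 probes marked as not usable were left out. Tables were made with Python 3.11.15, numpy 2.4.6 and pandas 2.3.3, and the procedure was tested on simulated data.

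A gene counted when it differed at least 2-fold (1.5-fold within lists) and either of the 2 arrays detected it. Named are the 15 largest differences per direction among brighter genes detected on both arrays, 13 fixed genes, genes that held 2-fold in 3 other settings, and the largest and first members of each of 30 lists. Up to 5 genes per direction detected on 1 array only were to be named, and all of these lay within 1.5-fold, so they are left out. Other settings changed the background, the normalization, the offset, the filter and the choice of probe. The comparison, members and lists were chosen with earlier results of these data known. Groups of 1 array allow no test, and precision is limited by that number. Other list members and genes named for context were chosen after their values were seen.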

Additional observations from a re-analysis of the deposited data

How the results depend on the processing

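At 2-fold, 23 genes were higher and 8 lower in D2LR-KO. The counts were 105 and 63 with local background, 223 and 135 from deposited values without a pseudocount, 11 and 13 with 1 median per array, 45 and 13 with an offset of 16, and 15 and 5 with an offset of 100. They were 103 and 52 at 1.5-fold and 2 and 3 at 3-fold. Of the main calls, 12 higher and 5 lower genes were among those found with local background. Deposited values plus 25, quantile normalization of the knockout arrays alone, cyclic loess, either other filter and the mean of probes gave 23 to 25 higher and 8 to 12 lower. Of 1184 values of 109 named genes under 11 other settings, 173 moved by more than the control-spot SD of 0.22 or turned sign at 1.5-fold. Among named genes at least 1.5-fold different, 2 turned sign, both when local background was used, namely Drd2, at -0.089, and Cldn5, at -0.13. Among named genes within 1.5-fold, 25 turned sign with local background, 11 with 1 median per array, and at most 2 in any other setting. Of 330 list medians 12 moved by more than that SD. For genes that moved, the cause was not tested. No paired analysis was possible because each group has 1 array, and for the same reason none could be left out. The D2R-KO array detected spots above 39.5, against a median gene spot of 74.9, so dim genes were close to blank spots.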

Other observations

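Beyond the lists, the 103 genes at least 1.5-fold higher in D2LR-KO held further genes of connective tissue and of secreted or matrix proteins, picked here after their values were seen. Fibronectin (Fn1) was at 117.3 in D2R-KO and 259.8 in D2LR-KO (1.03), Igfbp2 at 342.1 and 680.1 (1.02), Pcolce, which aids collagen processing, at 45.4 and 120.5 (1.01), the complement inhibitor Serping1 at 86.2 and 206.7 (1.08), Lamb2 at 107.2 and 202.0 (0.83), Anxa1 at 82.8 and 166.6 (0.86) and Slc13a4 at 75.0 and 150.7 (0.83). For each of these D2LR-KO was the highest of the 4 arrays. The transcription factor Osr1 was at 30.5 and 94.9 (1.05) and the cell cycle kinase Cdk2 at 86.3 and 205.6 (1.08).

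The 52 lower genes held further neuronal genes, also picked after their values were seen. Syn2, a synaptic vesicle protein, was at 1321.6 and 745.3 (-0.66), the sodium pump subunit Atp1b1 at 16843.1 and 11260.1 (-0.72) and the acid-sensing channel Asic2 at 118.9 and 56.6 (-0.70). Of the 155 genes of both directions, 15 lie on chromosome 9, which carries Drd2 and 5.98% of the genes compared. They include Drd2 itself (start at position 49340360), Tagln (45929628) and Jaml (45079153). Whether closeness to Drd2 plays a part in the differences of Tagln and Jaml was not tested. Among 6125 detected probes with no gene symbol here, 12 were at least 2-fold higher and 2 lower.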
